A study of Mus musculus with 8 samples.

Results

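The infiltrating macrophages and the microglia of 6 GL261 tumours were compared within each tumour. Cells were assigned to a class from measured counts of unique molecular identifiers (UMIs, which count RNA molecules). Among the 1000 barcodes with the most UMIs of each tumour-bearing library, 4807 of 6000 held at least 1000 genes. Of these, 631 carried at least 30 UMIs per 10000 of the myeloid genes Tyrobp, Fcer1g and Ctss together, and fewer than 10 per 10000 of Col9a1, Lect1 and Rhox5, genes of the tumour cells. A cell was called microglia when P2ry12, Siglech, Cx3cr1 and Gpr34 together reached 10 UMIs per 10000 and exceeded Tgfbi, Thbs1, Ccr2, Ly6c2, Plac8 and Ms4a7 together, and a macrophage in the reverse case. This gave 166 microglia and 410 macrophages, 576 cells of the 5733 that passed the gene minimum in all 8 libraries, while 55 myeloid cells (8.72%) stayed unclassified.

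Microglia are the resident macrophages of the brain parenchyma, seeded from yolk sac progenitors and maintained locally through the colony-stimulating factor 1 receptor and transforming growth factor beta. Tumours also draw in blood monocytes, which enter through chemokine receptors such as Ccr2 and mature into macrophages inside the tumour. Both populations are known as tumour-associated microglia/macrophages (TAMs). In glioma they are described as differing in antigen presentation, cytokine release and metabolism, and markers taken from unperturbed brain can be lost from microglia that react to a tumour.

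Drop-seq, which captures the polyadenylated RNA of single cells on barcoded beads in droplets, was run on 1 library for each combination of genotype and condition. GL261 is a mouse glioma cell line, of which 500 cells were implanted into the brain of C57BL/6 mice that were Irg1/Acod1 +/+ (WT) or -/- (KO), and tissue was taken at a tumour volume of 5 to 10 mm3 (early), 20 to 25 mm3 (intermediate) or 30 to 35 mm3 (late). Acod1 encodes the enzyme that makes itaconate from cis-aconitate and the KO allele carries a cassette inserted between exons 3 and 5. Each tumour library held the cells of 1 mouse, with females in the WT early and KO intermediate libraries and males in the other 4, so that each genotype had 1 female and 2 males and the sexes differed between the genotypes at the early and intermediate stages. Suspensions of the tumour region were cleared of myelin with beads and used without a sort for myeloid cells. The 2 naïve libraries, 1 per genotype without implanted cells and each labelled with 2 sample codes, went through the same gate as a reference and entered no fit.

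Microglia numbered 58, 6 and 20 in the WT early, intermediate and late libraries and 15, 45 and 22 in the KO libraries of the same stages. The corresponding numbers of macrophages were 108, 14 and 20 in WT and 78, 84 and 106 in KO. The WT intermediate library thus stood apart, with 21098 UMIs in its microglia against 49024 to 235297 in the microglia of the other 5 tumours. UMI sums of the macrophages ranged from 85017 to 570115, and median UMIs per cell from 2624 to 3750 in microglia and from 2703 to 4395 in macrophages. Levels are given as UMIs per 1000000 of a class sum (CPM). A gene at 0 could lie below 12.7 to 142 CPM in a microglia sum and below 5.26 to 35.3 CPM in a macrophage sum, the level of 3 UMIs. These limits, like the intervals given below for ratios of UMIs, cover counting error only. In sums over a class, fewer expressing cells and less RNA per cell cannot be told apart.

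The genes of the gate describe the classes and were not tested. P2ry12, a purinergic receptor of resting microglia, was at 521 to 1326 CPM in the microglia and at 14.9 to 76.9 CPM in the macrophages of the 6 tumours, and at 3514 and 3859 CPM in the microglia of the WT and KO naïve brains. Cx3cr1, the fractalkine receptor, was at 1801 to 2172 CPM in microglia and 86.9 to 529 CPM in macrophages. Ly6c2, a surface protein of inflammatory monocytes, was at 0 to 58.4 CPM in microglia and 809 to 1588 CPM in macrophages, and Ccr2 at 0 to 129 CPM and 230 to 800 CPM. The pan-myeloid Tyrobp spanned 1705 to 2335 CPM and 1569 to 2423 CPM. The gate fixed these differences between the classes. The level of P2ry12 in the tumour microglia lay below that of the naïve brain.

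The median score of the own gene set was 49.15 UMIs per 10000 in microglia and 40.05 in macrophages, and the score of the other set was 0 in 116 microglia (69.9%) and 212 macrophages (51.7%). Both scores reached 10 in 39 myeloid cells (6.18%). The members nearest to the cuts had a myeloid score of 30.1 (29.9 for the nearest cell outside), a tumour score of 9.70 (10.3 outside) and a higher class score of 10.03 (9.86 outside). No doublet caller was applied. The 576 cells shared no barcode between libraries, and 2 of 5726 barcodes were found in more than 1 of the 8 libraries.

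**Figure D1:**
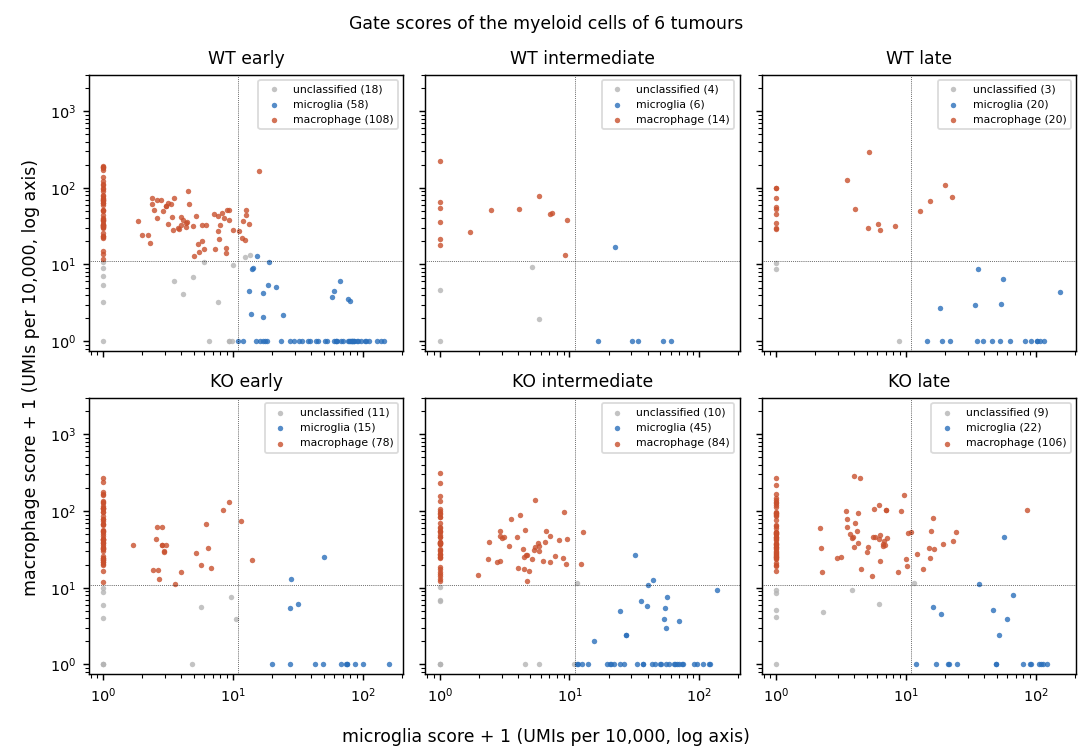
Each point is a myeloid cell of 1 of the 6 tumour libraries, with the microglia score on the x axis and the macrophage score on the y axis (summed UMIs per 10000 plus 1, log axes; dotted lines mark the minimum of 10). Microglia (blue) and macrophages (red) lay mostly along the axes, and 55 cells (grey) stayed unclassified.

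Macrophages made up 65.1%, 70% and 50% of the 2 classes in the WT early, intermediate and late tumours and 83.9%, 65.1% and 82.8% in the KO tumours of the same order. The mean share was 61.7% ± 10.4 (SD, n = 3) in WT and 77.3% ± 10.5 (SD, n = 3) in KO. The shares of the genotypes overlapped. The difference of 15.6 percentage points gave p = 0.2 in an exact two-sided permutation test, which cannot reach 0.05 with 3 against 3, where the smallest p is 0.1. The exact 95% binomial interval of a single share was widest in the WT intermediate tumour, 45.7% to 88.1%. The same gate called 3 of 96 cells macrophages in the WT naïve brain (3.12%) and 3 of 124 in the KO naïve brain (2.42%).

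To learn which genes differed between the classes, UMIs were summed per library and class and fitted with edgeR's quasi-likelihood test, with the tumour as a block, so that each macrophage sum was compared with the microglia of its own mouse. Of 3700 genes tested, 489 (13.2%) were higher in macrophages and 442 (11.9%) were lower at a Benjamini-Hochberg adjusted p of 0.05. The fold reached 2 for 314 of the higher and 319 of the lower genes, and 8 for 75 and 59 of them. The median log2 fold change over all genes tested was 0.05. Among the genes called, 660 of 931 moved in the same direction in all 6 tumours. The p-values of genes outside the gate set the mean gap against a spread over 6 mice that edgeR moderates across genes. A small p-value therefore does not mean that the gap was alike in all 6. Because the cells were selected on measured values, these p-values are not independent evidence that 2 classes exist. A gene could pass the filter on low counts through 1 class alone, so counts of list members are given as descriptions beside the shares above.

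**Figure D2:**
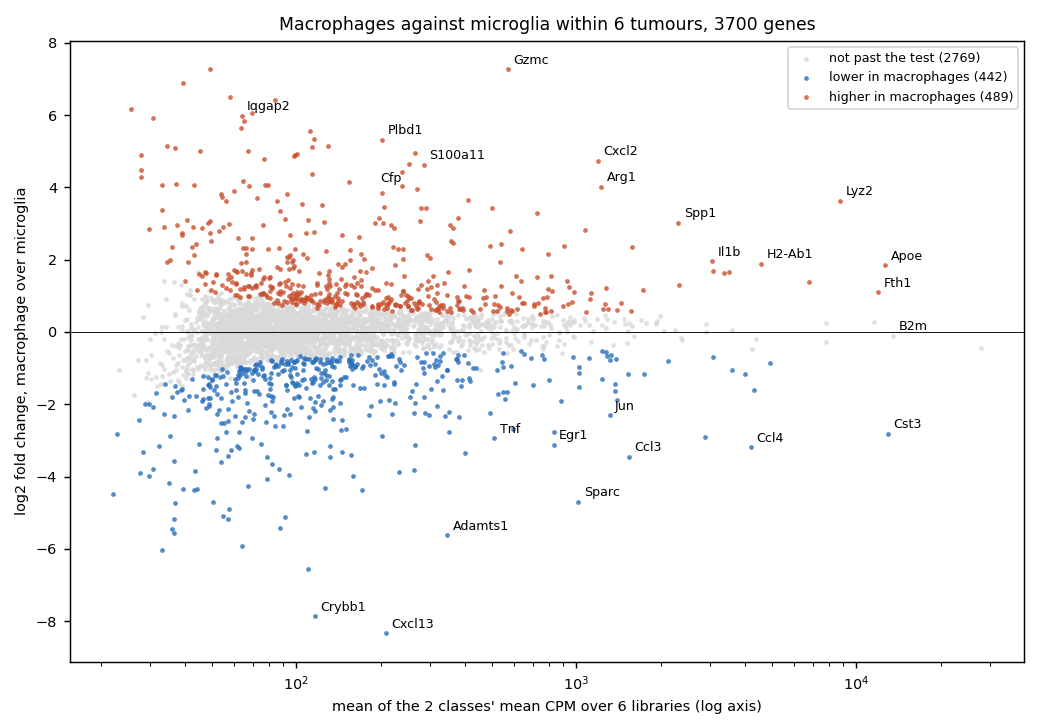
Log2 fold change of macrophages over microglia (y axis) against the mean CPM of the 2 classes (x axis, log scale) for 3700 genes, of which 489 were higher (red) and 442 lower (blue) in macrophages. Sparc and Cst3 lay low at a high level, Lyz2 and Apoe high at a high level, and B2m close to 0.

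Genes of resting microglia marked the microglial side of the gap. Of 34 listed genes outside the gate, 33 were tested and 33 were lower in macrophages, with a median log2 fold change of -2.77.

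Sparc, a matricellular protein of microglia (chromosome 11, 55394500 to 55423183, minus strand; this and all further gene positions are those of GENCODE M21 on GRCm38), reached 1305, 2052 and 2301 CPM at the lowest, median and highest tumour in microglia, and 23.4, 64.5 and 168 CPM in macrophages (log2 fold change -4.70 ± 0.27, adjusted p = 1.5e-11). Tmem119, a membrane protein used to tell microglia from infiltrating cells, lay at 237 to 714 CPM against 12.4 to 105 CPM (-3.81 ± 0.34, adjusted p = 1.2e-08). Sall1, the transcription factor that maintains microglial identity (chromosome 8, 89027235 to 89044162, minus strand), was present in the microglia of every tumour at 70.1 to 142 CPM, while 4 of 6 macrophage sums held no UMI and the highest held 9.61 CPM (-5.08 ± 0.64, adjusted p = 1.5e-06). All 3 genes separated the classes without overlap. Their naïve levels, 3015 and 3132 CPM for Sparc, 1097 and 1262 CPM for Tmem119 and 303 and 313 CPM for Sall1, lay above every tumour microglia sum.

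The largest gaps in this direction belonged to genes that were nearly missing from macrophages. Crybb1, a crystallin gene that is also a microglial marker (chromosome 5, 112255815 to 112269585, plus strand), gave 146 UMIs in microglia and 1 UMI in macrophages, a ratio of 439.5 between the pooled levels (exact 95% interval 77.7 to 17480). Slco2b1, an organic anion transporter, gave 125 UMIs against 3 (ratio 125, interval 41.9 to 616), Slc2a5, a fructose transporter, 47 against 1 (ratio 142, interval 24.2 to 5706), and Ecscr 52 against 2 (ratio 78.3, interval 20.6 to 663). All 4 were counted in both naïve microglia sums, at 192 CPM or more.

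Among genes outside the lists, Adamts1, a secreted metalloprotease (chromosome 16, 85793827 to 85803113, minus strand), was at 72.5 to 1849 CPM in microglia and 0 to 35.1 CPM in macrophages (log2 fold change -5.62 ± 0.31, adjusted p = 1.2e-11). Hpgd, which inactivates prostaglandins, was lower by 5.42 ± 0.44 on the log2 scale, from a microglial median of 146 CPM to 2.61 CPM in macrophages. Rasgrp3 had a log2 fold change of -5.11 ± 0.49, Capn3 of -4.90 ± 0.64, Adgrg1 of -5.19 ± 0.69 and Pmp22 of -4.38 ± 0.33. Ltc4s, leukotriene C4 synthase, had one of -4.32 ± 0.33 and Plxdc2 one of -3.98 ± 0.32. These 8 genes were picked among the largest changes that moved alike in every pair, so being lower in 6 of 6 tumours was set by the choice. In each the lowest microglia sum exceeded the highest macrophage sum, which a choice of large changes favours. It is given as a description.

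Genes that the study named for TAMs were also followed, and their selection on these samples makes them no independent evidence of direction. Of 42 such genes, all tested, 22 were higher and 15 lower in macrophages. Olfml3 had a log2 fold change of -2.78 ± 0.22, Bin1 of -2.69 ± 0.21 and Selplg, a selectin ligand, of -2.34 ± 0.24. Fcrls, an Fc receptor-like protein, was lower in all 6 tumours (-2.25 ± 0.30), though its classes overlapped because the macrophages of 1 tumour reached 835 CPM. Without the block on the tumour, Fcrls was no longer called (adjusted p = 0.138). Plek, encoding pleckstrin, fell by 0.55 ± 0.17 and was not called without the WT early library (adjusted p = 0.064). Tspo did not pass the test (0.50 ± 0.19, adjusted p = 0.062).

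**Figure D3:**
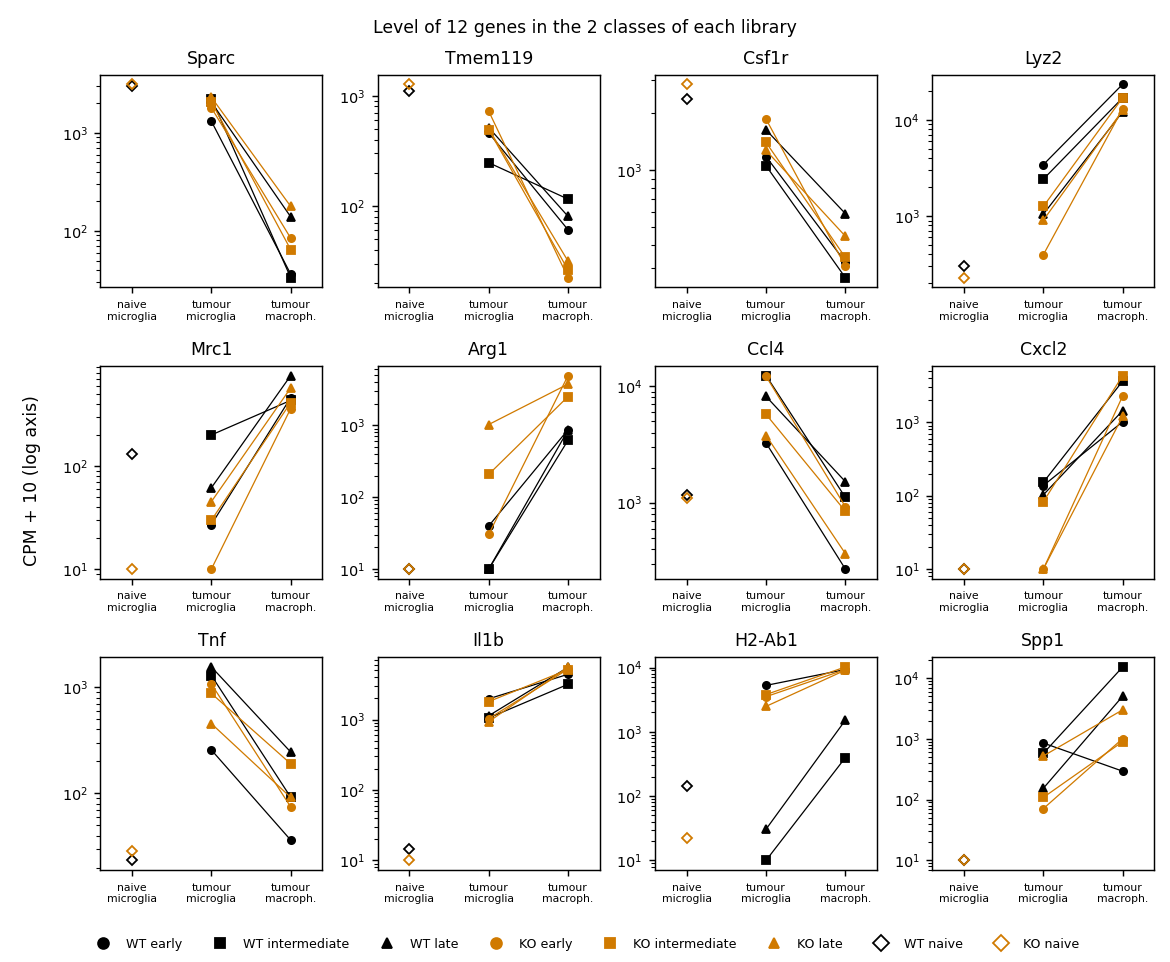
CPM plus 10 (log axis) of 12 genes, with a line joining the microglia and the macrophages of the same tumour (black WT, orange KO; circles early, squares intermediate, triangles late) and open diamonds for the naïve microglia of each genotype. Sparc, Tmem119, Csf1r, Ccl4 and Tnf went down and Lyz2, Mrc1, Arg1, Cxcl2 and Il1b went up in every tumour, while Spp1 went down in the WT early tumour.

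On the macrophage side, Lyz2, the lysozyme of myeloid cells (chromosome 10, 117277331 to 117282321, minus strand), was at 388, 1146 and 3425 CPM at the lowest, median and highest tumour in microglia. It was at 12200, 15040 and 23570 CPM in macrophages, a log2 fold change of 3.64 ± 0.25 (adjusted p = 1.7e-10). The reads of Lyz2 and its near copy Lyz1 can be split by the counting, so the exact level is uncertain. The classes did not overlap, and naïve microglia stayed at 294 and 219 CPM. Vim, the intermediate filament vimentin, had a log2 fold change of 2.37 ± 0.25. Of 13 listed macrophage markers outside the gate 9 were tested and 9 were higher, whereas 4 did not pass the filter on low counts.

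Several genes were close to restricted to macrophages. Plbd1, a phospholipase B-like protein (chromosome 6, 136612070 to 136661928, minus strand), had a UMI in 281 of 410 macrophages (68.5%) and in 3 of 166 microglia (1.81%). Its level was 211 to 565 CPM against 0 to 23.4 CPM (log2 fold change 5.32 ± 0.37, adjusted p = 1.7e-10). Iqgap2, a scaffold of the actin cytoskeleton, gave 232 UMIs in macrophages against 1 in microglia (ratio 77.1, exact 95% interval 13.7 to 3057), Emilin2 220 against 1 (73.1, 12.98 to 2900) and Cd93, a C1q receptor-like protein, 181 against 1 (60.1, 10.7 to 2388). F13a1, the coagulation factor XIII A chain, gave 338 against 2 (56.1, 15.4 to 465) and Slfn4 302 against 3 (33.4, 11.3 to 163). Emb had a log2 fold change of 4.91 ± 0.43 and Myof, a membrane repair protein, of 4.90 ± 0.46. Each of these 8 genes was higher in 6 of 6 tumours. The rule for the largest changes took only genes that moved alike in every pair, so this count is a description.

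Gzmc, a granzyme of cytotoxic lymphocytes (chromosome 14, 56231441 to 56234656, minus strand), had 790 UMIs in macrophages and 1 in microglia, a ratio of 262 (exact 95% interval 46.97 to 10380). They came from 9 of 410 macrophages (2.20%) and 1 of 166 microglia (0.602%), and 528 of the UMIs came from the WT intermediate tumour. A single cell of that tumour held 471 of them. The interval covers counting error only, not this spread between cells. Markers of T and NK cells moved with it. The 11 listed markers summed to 0 to 46.8 CPM in microglia and to 0 to 1629 CPM in macrophages, higher in macrophages in 5 of 6 tumours, with the maximum in the WT intermediate tumour and 0 in both classes of the WT late tumour. Cd3e, Cd3d, Trbc1, Gzma, Klrb1c and Ncr1 were at 0 in all microglia, whereas all 11 markers were counted in macrophages. When cells with markers of other immune cells were left out, Gzmc, which is not among those markers, kept 1 UMI in macrophages, too few to test. Gzmb is 1 of the 11 markers, so its loss under this filter, to 2 of 193 UMIs, was set in advance.

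Transcription factors of cell identity split both ways. Of 31 listed, 24 were tested, 6 were higher and 7 lower in macrophages. Runx3 was counted in 3 of 6 microglia sums and lay at 119 to 223 CPM in macrophages (log2 fold change 4.05 ± 0.44, adjusted p = 1.3e-07). Bhlhe40, a basic helix-loop-helix repressor, rose from a microglial median of 8.44 CPM to a macrophage median of 167 CPM (3.81 ± 0.42, adjusted p = 1.9e-07). In the other direction stood Sall1, given above, and Mef2c, a factor of the microglial programme, with -2.21 ± 0.24 and levels of 432 to 755 CPM against 74.5 to 306 CPM.

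Receptors and mediators of colony-stimulating factor and transforming growth factor beta, the signals that keep microglia, were mostly lower in macrophages, with 8 of 14 tested members lower, 2 higher and a median log2 fold change of -0.77 (23 listed). Csf1r, the receptor for Csf1 and Il34, lay at 1043 to 1856 CPM in microglia and 258 to 576 CPM in macrophages (-1.90 ± 0.19, adjusted p = 5.9e-08), without overlap. Its ligand Csf1 was at a median of 301 CPM in microglia and 19.5 CPM in macrophages (-3.41 ± 0.40). Tgfbr1, a receptor kinase for transforming growth factor beta, had a log2 fold change of -2.06 ± 0.23, and Smad7, an inhibitor of that pathway, one of -2.30 ± 0.31.

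Chemokines divided by ligand. Among CC chemokines and receptors, 12 of 17 listed genes were tested, 6 were higher in macrophages and 3 lower. Ccl4, an attractant of monocytes and T cells (chromosome 11, 83662584 to 83664683, plus strand), was at 3243, 6938 and 12320 CPM at the lowest, median and highest tumour in microglia and at 260, 874 and 1506 CPM in macrophages (log2 fold change -3.19 ± 0.21, adjusted p = 1.0e-10). Its neighbour Ccl3 (chromosome 11, 83647844 to 83649355, minus strand) had medians of 3072 and 170 CPM (-3.45 ± 0.23, adjusted p = 1.0e-10). Neither gene's classes overlapped. Naïve microglia held 1164 and 1087 CPM of Ccl4.

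Ccl6 went the other way, from 40.8 to 276 CPM in microglia to 827 to 2611 CPM in macrophages (3.31 ± 0.35, adjusted p = 1.1e-07), as did the receptor Ccr1 (4.04 ± 0.34). Ccl8 was higher on average (3.08 ± 0.59, adjusted p = 2.8e-04) in 5 of 6 tumours and lower in the WT intermediate one, and it was not called by DESeq2 (adjusted p = 0.128) or limma (adjusted p = 0.247). The sequences of Ccl8 and Ccl12 are near copies, so their counts can be mixed. Ccl2, the main ligand of Ccr2, did not pass the test (-0.59 ± 0.26, adjusted p = 0.098, medians of 747 and 722 CPM).

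Of 12 listed CXC chemokines and receptors 8 were tested, 6 were higher and 1 lower in macrophages, with a median log2 fold change of 2.01. Cxcl2, a neutrophil attractant (chromosome 5, 90903871 to 90905938, plus strand), was at 0 to 142 CPM in microglia and 1007 to 4325 CPM in macrophages (4.74 ± 0.39, adjusted p = 2.6e-09). Cxcl1, of the same receptor, was at 0 to 82.3 CPM and 106 to 1465 CPM (4.43 ± 0.55), and its log2 fold change was 7.26 without the WT late library, the source of most of its microglial UMIs. Pf4, platelet factor 4, was at 0 to 94.8 CPM and 223 to 2484 CPM (3.64 ± 0.35). Cxcl10, induced by interferon, did not pass the test (-0.59 ± 0.27, adjusted p = 0.12).

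Cxcl13, the attractant of B cells (chromosome 5, 95956951 to 95961068, plus strand), was the exception. It gave 257 UMIs in microglia and 2 in macrophages, a ratio of 387 (exact 95% interval 106 to 3211). The microglial UMIs came from 10 of 166 cells (6.02%), at 204 CPM in the WT early, 178 CPM in the KO intermediate and 2126 CPM in the KO late tumour, while the other 3 microglia sums and both naïve sums held none. edgeR called the difference (log2 fold change -8.34 ± 0.48, adjusted p = 1.0e-10), but DESeq2 (adjusted p = 0.197) and limma on means of scaled cells (adjusted p = 0.073) did not.

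Of 25 listed genes of interleukin 1 and tumour necrosis factor, 20 were tested, 8 were higher and 4 lower in macrophages. Tnf was at 246, 962 and 1543 CPM at the lowest, median and highest tumour in microglia and at 26.3, 81.9 and 235 CPM in macrophages (-2.94 ± 0.23, adjusted p = 1.8e-09). Il1b (chromosome 2, 129364570 to 129371139, minus strand) showed the opposite order, with 923, 1082 and 1959 CPM in microglia and 3152, 5136 and 5564 CPM in macrophages (1.96 ± 0.22, adjusted p = 1.9e-07). Both cytokines separated the classes without overlap and in opposite directions, and both were near 0 in naïve microglia, at 13.4 and 18.8 CPM for Tnf and 4.46 and 0 CPM for Il1b. The inhibitors of interleukin 1 lay with Il1b. Il1rn, the receptor antagonist, had a log2 fold change of 3.42 ± 0.29, and Il1r2, the decoy receptor, 129 UMIs against 1 (ratio 42.9, exact 95% interval 7.56 to 1706). Nfkbia, the inhibitor of NF-kappa-B, had a log2 difference of -0.16 ± 0.19 (adjusted p = 0.59).

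Immediate early genes, which respond within minutes to stimulation and to tissue dissociation, were lower in macrophages for 11 of 25 tested members (26 listed) and higher for 4, with a median log2 fold change of -0.35. Egr1 was at 1004 to 2228 CPM in microglia and 96.8 to 292 CPM in macrophages (-3.12 ± 0.23, adjusted p = 5.7e-10). Jun had medians of 1977 and 404 CPM (-2.30 ± 0.21, adjusted p = 1.2e-08) and Atf3 of 1946 and 569 CPM (-1.89 ± 0.21). Naïve microglia held 6627 and 6274 CPM of Jun, above the tumour microglia. Nr4a2 was higher in macrophages (2.24 ± 0.33), in 5 of 6 tumours. Fos (0.25 ± 0.19, adjusted p = 0.35) and Junb (-0.32 ± 0.18, adjusted p = 0.21) did not pass the test. The part of the dissociation in these gaps was not tested.

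Complement genes were lower in macrophages for 6 of 13 tested members (20 listed) and higher for 3. The subunits of C1q, which start the classical pathway, were moderately lower, with a log2 fold change of -1.04 ± 0.18 for C1qa, -0.87 ± 0.18 for C1qb and -1.15 ± 0.18 for C1qc (adjusted p = 7.9e-05, 5.8e-04 and 3.1e-05). The classes did not overlap for any of the 3 (C1qa at 3644 to 6476 CPM in microglia and 1453 to 2882 CPM in macrophages). C4b, a component of the classical pathway, fell further, from a median of 233 to 46.9 CPM (-2.67 ± 0.28). Properdin, the activator of the alternative pathway encoded by Cfp (chromosome X, 20925454 to 20931555, minus strand), rose from 0 to 29.7 CPM in microglia to 365 to 559 CPM in macrophages (4.64 ± 0.30, adjusted p = 1.0e-10), and Cfb, a component of its convertase, had a log2 fold change of 1.94 ± 0.35. The receptor C3ar1 did not pass the test (-0.11 ± 0.22, adjusted p = 0.76).

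Major histocompatibility complex (MHC) class II genes, which present antigen to CD4+ T cells, were higher in macrophages for 5 of 7 tested members (11 listed) and lower for 1, with a median log2 fold change of 1.37. H2-Ab1 (chromosome 17, 34257689 to 34269419, plus strand) was at 5257, 0 and 20.6 CPM in the microglia of the WT early, intermediate and late tumours and at 3508, 3786 and 2476 CPM in those of the KO tumours. In macrophages it was at 9295, 387 and 1506 CPM in WT and 9292, 10190 and 9094 CPM in KO. Macrophages exceeded the microglia of the same tumour in 6 of 6 (1.89 ± 0.35, adjusted p = 2.1e-04), but the WT intermediate and late tumours were low in both classes, so that the groups overlapped. Without the block on the tumour the gene was not called (adjusted p = 0.277).

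H2-Aa (1.65 ± 0.40, adjusted p = 0.0032), H2-Eb1 (1.62 ± 0.38, adjusted p = 0.0021) and the invariant chain Cd74 (1.37 ± 0.41, adjusted p = 0.015) followed the same pattern in 6 of 6 tumours. DESeq2 called none of these 3 (adjusted p of 0.094, 0.080 and 0.096), nor did edgeR without the block (0.384, 0.389 and 0.616). Cd74 had a log2 fold change of 0.87 without the WT late library and lost the call without the KO late one (adjusted p = 0.061). H2-Oa, which restrains peptide loading, went the other way (-3.16 ± 0.38, adjusted p = 1.0e-06). H2-DMa did not pass (0.33 ± 0.21, adjusted p = 0.28).

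MHC class I genes and the proteasome and transport genes that serve them were close to level, with 1 of 21 tested members higher, 1 lower and a median log2 fold change of -0.10 (24 listed). B2m, the invariant light chain, was at 10020 to 18300 CPM in microglia and 10360 to 15940 CPM in macrophages, with a 95% interval of the log2 difference from -0.47 to 0.26, and H2-K1 had an interval from -0.33 to 0.46. B2m stood at 3741 and 4063 CPM in naïve microglia, so that both tumour classes lay above the naïve level. H2-D1 did not pass either (-0.19 ± 0.20, adjusted p = 0.52). H2-Q6 was lower (-1.12 ± 0.22, adjusted p = 3.4e-04), with reads that can be shared with its near copy H2-Q7. Psmb8, an immunoproteasome subunit, was higher by 0.57 ± 0.18 (adjusted p = 0.019) and lost the call without the KO early library (adjusted p = 0.063). Calr, which loads class I, had an interval from -0.47 to 0.26. Outside the list, Hspa5, a chaperone of the endoplasmic reticulum, had one from -0.32 to 0.43.

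Interferon response genes were higher in macrophages for 12 of 39 tested members (43 listed) and lower for 0, with a median log2 fold change of 0.26. Ifi205 was counted in 3 of 6 microglia sums and lay at 117 to 266 CPM in macrophages (3.62 ± 0.41), and Ifi209 at 40.8 to 129 CPM and 165 to 387 CPM (1.66 ± 0.27). The antiviral membrane proteins Ifitm2 (2.29 ± 0.30) and Ifitm3 (1.08 ± 0.19) were higher in 5 and 6 of 6 tumours, and Ifitm1 gave 178 UMIs against 1 (ratio 59.1, exact 95% interval 10.5 to 2349). Members of the Ifi2 and Ifitm clusters resemble each other, so single levels are uncertain. Ly6e (0.03 ± 0.17, adjusted p = 0.93) and Ifi27l2a (0.19 ± 0.22, adjusted p = 0.57) did not pass the test.

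Receptors for immunoglobulin, lectins and other ligands of phagocytosis were higher in macrophages for 18 of 27 tested members (38 listed) and lower for 5. The C-type lectins led. Clec4n (Dectin-2) was at 0 to 190 CPM in microglia and 247 to 691 CPM in macrophages (4.94 ± 0.40, adjusted p = 1.9e-09) and Clec4d had a log2 fold change of 4.19 ± 0.50. Clec4e (Mincle) gave 387 UMIs against 3 (ratio 42.9, exact 95% interval 14.5 to 209), and its log2 fold change of 5.34 became 8.55 without the KO late library, which held all 3 microglial UMIs. Trem1, an amplifier of inflammation, gave 143 UMIs against 1 (ratio 47.5, interval 8.39 to 1889). Clec7a (Dectin-1), known from plaque-associated microglia, was at 41.1 to 1861 CPM and 1411 to 3248 CPM (2.35 ± 0.32). Trem2, a lipid receptor of microglia, stood in the other direction, at 911 to 1327 CPM in microglia and 266 to 635 CPM in macrophages (-1.48 ± 0.19, adjusted p = 1.8e-06). The Fc receptors Fcgr3 (-0.27 ± 0.18, adjusted p = 0.30) and Fcgr1 (0.0017 ± 0.21, adjusted p = 0.997) did not pass the test.

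In the Ms4a family of membrane proteins, of which Ms4a7 served in the gate, 5 of 12 listed members were tested and 5 were higher in macrophages, with a median log2 fold change of 2.44. Ms4a4c had one of 2.97 ± 0.30 and Ms4a6c one of 2.44 ± 0.27. These genes lie in a cluster of similar sequences, so reads can be shared between members.

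Lysosomal genes were lower in macrophages for 10 of 26 tested members (28 listed) and higher for 5. Ctsf, cathepsin F, was counted in all 6 microglia sums, at 47.4 to 105 CPM, and in 3 macrophage sums with a maximum of 11.8 CPM (-4.73 ± 0.69). Cst7, an inhibitor of cathepsins known from disease-associated microglia, was lower in 5 of 6 tumours (-3.12 ± 0.55, adjusted p = 1.2e-04), but in the WT intermediate tumour it was at 0 CPM in microglia and 410 CPM in macrophages. It was not called by limma on means of scaled cells (adjusted p = 0.124). Ctsb, cathepsin B, did not pass the test (-0.48 ± 0.19, adjusted p = 0.069).

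Genes of disease-associated microglia, a state described around amyloid plaques, did not sort to 1 class, with 8 of 23 tested members (25 listed) higher in macrophages, 8 lower and a median log2 fold change of -0.03. Apoe, the lipid carrier, was at 612, 7787 and 14120 CPM at the lowest, median and highest tumour in microglia and at 8024, 17770 and 27880 CPM in macrophages (1.85 ± 0.34, adjusted p = 1.6e-04), higher in macrophages in 6 of 6 tumours but not called without the block (adjusted p = 0.107). Naïve microglia held 2809 and 2171 CPM. Spp1, osteopontin (chromosome 5, 104435118 to 104441050, plus strand), was at 846, 569 and 144 CPM in the microglia of the WT early, intermediate and late tumours and at 61.2, 98.9 and 514 CPM in KO, and in macrophages at 284, 15300 and 5046 CPM in WT and 1003, 892 and 3006 CPM in KO. The log2 fold change was 3.02 ± 0.59 (adjusted p = 3.5e-04), with the WT early tumour in the opposite direction. In that tumour a single cell held 133 of the 199 microglial UMIs of Spp1. Axl, a receptor for apoptotic cells, was at the edge of the threshold (0.74 ± 0.27, adjusted p = 0.046) and lost the call in 15 of the alternatives, among them the omission of any tumour other than the WT intermediate one (adjusted p of 0.068 to 0.18).

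Genes of lipid uptake and storage were higher for 6 of 14 tested members (22 listed) and lower for 3. Besides Apoe, Msr1, a scavenger receptor, was at 0 to 170 CPM in microglia and 423 to 826 CPM in macrophages (2.97 ± 0.29, adjusted p = 4.2e-08), and Fabp5, a fatty acid carrier, had medians of 37.8 and 278 CPM (3.02 ± 0.33).

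**Figure D4:**
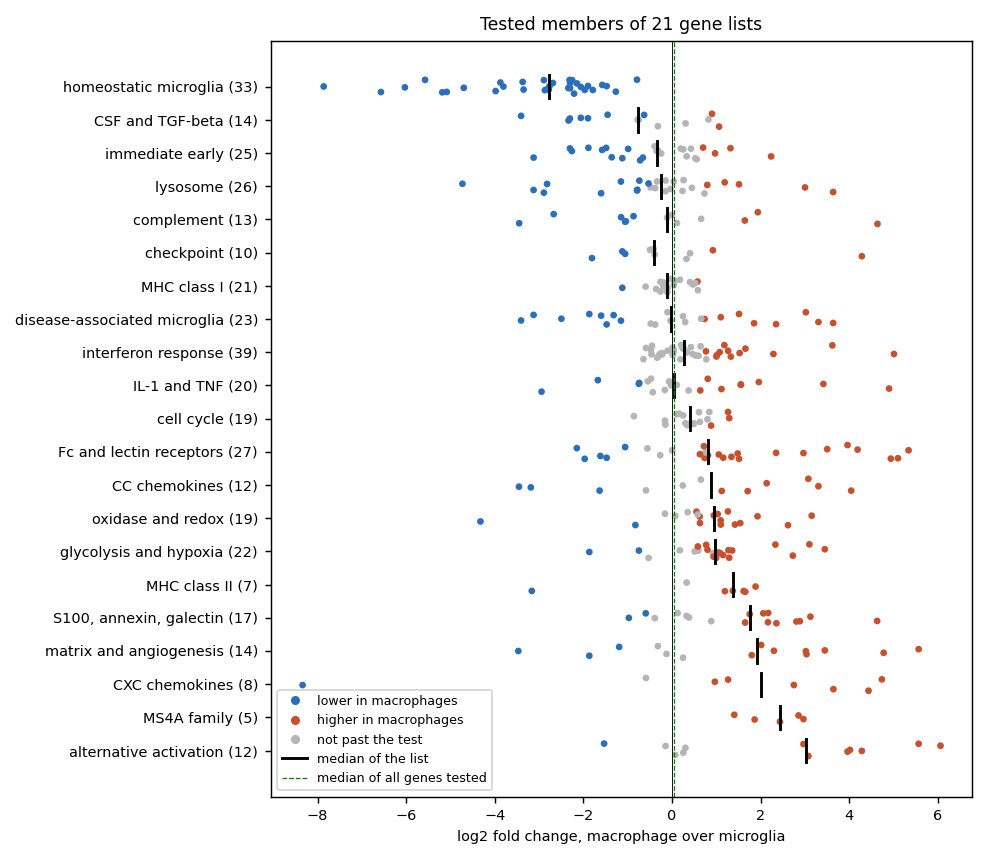
Log2 fold change of macrophages over microglia for the tested members of 21 gene lists (number in brackets), with members higher in macrophages in red, lower in blue and those that did not pass in grey; black bars mark list medians and the dashed line the median of all 3700 genes. The list of resting microglia had its median at -2.77 and that of alternative activation at 3.02, whereas MHC class I lay at -0.10.

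Of 34 listed genes of glycolysis and of the response to low oxygen, 22 were tested, of which 15 were higher in macrophages, 2 were lower and 5 did not pass, and the median log2 fold change was 0.97. Vegfa, the angiogenic growth factor (chromosome 17, 46016993 to 46032369, minus strand), was at 0, 11.7 and 140 CPM at the lowest, median and highest tumour in microglia and at 165, 345 and 592 CPM in macrophages (3.45 ± 0.40, adjusted p = 3.6e-07), without overlap. Hilpda, a lipid droplet protein induced by low oxygen, had medians of 17.2 and 208 CPM (3.10 ± 0.39), Pfkp, a phosphofructokinase, of 15.8 and 116 CPM (2.33 ± 0.39), and Ldha, lactate dehydrogenase A, of 288 and 596 CPM (1.15 ± 0.23, adjusted p = 3.9e-04). Mif (0.94 ± 0.20) was higher in all 6 tumours, and Ndrg1 (2.73 ± 0.69) in 5, with a log2 fold change of 4.85 without the WT late library.

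Both members that were lower act on early steps of glycolysis. Pfkfb3, which makes an activator of phosphofructokinase, was at 163 to 257 CPM in microglia and 23.5 to 108 CPM in macrophages (-1.87 ± 0.29, adjusted p = 2.0e-05), without overlap. Hk2, a hexokinase, had medians of 197 and 109 CPM (-0.75 ± 0.23, adjusted p = 0.016), and was not called without the WT early library (adjusted p = 0.096). Among 5 members that did not pass were the glucose transporter Slc2a1 and phosphoglycerate kinase, Pgk1.

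The promoters of the listed genes that were tested were searched for ACGTG, the core of the element bound by hypoxia-inducible factors, on both strands (CACGT on the strand shown). A palindromic CACGTG, the E-box read by other factors, holds the core on both strands and counts as 2 matches. Windows were the RefSeq promoters of GRCm38.p6, from 250 bases before to 50 after a start. For 20 of the 22 tested members a window was found, and 15 (75.0%) held a match in at least 1 window, against 21.8% of 27025 genes and 31.1% of the 2737 tested genes with a window. The share was 9 of 13 for members higher in macrophages, 2 of 2 for those lower and 4 of 5 for those that did not pass, so it did not separate the directions. Over all genes, 30.3% of those higher and 22.8% of those lower in macrophages held a match. A match is a description of the sequence and not of binding. The 250 bases before the start are shown for 4 members higher in macrophages, namely Ldha (chr7:46845554-46845803, plus strand, 5 matches), Bnip3 (chr7:138909507-138909756, minus strand, 2 matches), Slc16a3, a lactate transporter (chr11:120948817-120949066, plus strand, 2 matches) and Hif1a, the oxygen-regulated factor itself (chr12:73907617-73907866, plus strand, 3 matches), and for Pfkfb3, which was lower (chr2:11553930-11554179, minus strand, 1 match). Pfkfb3 has another window further downstream, with 2 matches, that is not shown. Ldha also has another window, without a match, that is not shown. The stretches run 5′ to 3′ along the gene, with the matches in capitals.
Ldha: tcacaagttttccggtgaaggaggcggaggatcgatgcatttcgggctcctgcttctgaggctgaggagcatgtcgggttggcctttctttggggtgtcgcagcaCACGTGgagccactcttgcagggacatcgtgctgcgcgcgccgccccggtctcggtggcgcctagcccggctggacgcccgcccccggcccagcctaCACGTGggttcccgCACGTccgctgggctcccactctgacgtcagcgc
Bnip3: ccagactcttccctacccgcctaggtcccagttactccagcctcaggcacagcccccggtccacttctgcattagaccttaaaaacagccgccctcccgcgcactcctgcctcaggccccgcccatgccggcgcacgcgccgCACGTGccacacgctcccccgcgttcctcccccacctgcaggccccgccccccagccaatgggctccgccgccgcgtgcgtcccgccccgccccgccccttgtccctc
Slc16a3: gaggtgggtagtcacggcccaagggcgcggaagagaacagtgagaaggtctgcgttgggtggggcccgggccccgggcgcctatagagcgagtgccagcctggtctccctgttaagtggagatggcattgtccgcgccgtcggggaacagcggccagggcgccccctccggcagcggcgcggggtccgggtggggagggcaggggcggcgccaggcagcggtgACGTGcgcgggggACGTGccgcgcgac
Hif1a: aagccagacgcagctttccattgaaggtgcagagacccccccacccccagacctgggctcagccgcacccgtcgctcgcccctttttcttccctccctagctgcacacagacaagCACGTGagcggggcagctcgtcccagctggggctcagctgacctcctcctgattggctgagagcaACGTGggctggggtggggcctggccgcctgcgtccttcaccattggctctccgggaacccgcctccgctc
Pfkfb3: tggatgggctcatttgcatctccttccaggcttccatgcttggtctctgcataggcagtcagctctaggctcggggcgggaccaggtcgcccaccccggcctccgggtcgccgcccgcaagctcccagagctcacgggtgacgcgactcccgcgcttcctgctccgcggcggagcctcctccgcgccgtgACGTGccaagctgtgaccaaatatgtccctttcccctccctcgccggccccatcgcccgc

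Bnip3 had a log2 fold change of 1.27 ± 0.36 (adjusted p = 0.0094), Slc16a3 one of 1.08 ± 0.38 (adjusted p = 0.039) and Hif1a one of 0.77 ± 0.22 (adjusted p = 0.010). These 3 and Pfkfb3 were chosen for display after their values were seen. All 5 stretches hold a match, but they were picked and do not stand for the list. Eno1, Gpi1, Pfkp and Tpi1, also higher in macrophages, have no match in any window.

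Genes of arginine use and of alternative activation, the programme known from responses to interleukin 4, included Arg1, arginase 1 (chromosome 10, 24915221 to 24927484, minus strand). In microglia it was at 29.7, 0 and 0 CPM in the WT early, intermediate and late tumours and at 20.4, 198 and 1016 CPM in KO. In macrophages it was at 859, 609 and 847 CPM in WT and at 4914, 2506 and 3742 CPM in KO. Macrophages exceeded microglia in 6 of 6 tumours (4.02 ± 0.43, adjusted p = 1.2e-07), and the KO macrophages lay above the WT macrophages, a difference that was not tested. The genotype term of the gap was not called (KO minus WT -1.95 ± 0.96, adjusted p = 0.9995). Leaving out the 35 cells of the 2 classes with both scores at 10 or more raised the log2 fold change to 8.44. Arg1 had a UMI in 192 of 410 macrophages (46.8%) and 6 of 166 microglia (3.61%), 1 of which held 87 UMIs.

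Of 21 listed genes of alternative activation 12 were tested, 7 were higher and 1 lower, with a median log2 fold change of 3.02. Mrc1, the mannose receptor, was at 0 to 190 CPM in microglia and 350 to 741 CPM in macrophages (3.96 ± 0.33, adjusted p = 2.6e-09). Mgl2, a galactose-type lectin, gave 334 UMIs against 1 (ratio 111, exact 95% interval 19.8 to 4395) and was higher in 5 of 6 tumours. Of 13 listed arginine genes 8 were tested, 3 were higher and 2 lower. The arginine transporter Slc7a2 (3.74 ± 0.48) and the synthetase Ass1 (2.60 ± 0.44, 4.35 without the WT early library) lay with Arg1. Ckb, creatine kinase B, was lower (-2.24 ± 0.21), and Gatm did not pass (0.46 ± 0.26, adjusted p = 0.22).

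Of 23 listed S100 proteins, annexins and galectins, cytoplasmic proteins of monocytes, 17 were tested, 10 were higher and 2 lower, with a median log2 fold change of 1.76. S100a11 was at 0 to 40.8 CPM in microglia and 329 to 867 CPM in macrophages (4.63 ± 0.31, adjusted p = 1.0e-10). S100a4 (3.12 ± 0.39) and S100a10 (2.89 ± 0.28) were higher in 6 of 6 tumours. Lgals3, galectin-3, was at a median of 267 CPM in microglia and 1572 CPM in macrophages (2.81 ± 0.28, adjusted p = 5.8e-08), while naïve microglia held 8.92 and 3.13 CPM.

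Adhesion and migration genes were higher for 12 of 27 tested members (31 listed) and lower for 7. Gda had a log2 fold change of 4.88 ± 0.49, Crip1 of 3.15 ± 0.28 and Tmsb10, a thymosin that binds actin, of 2.30 ± 0.25. Of 28 listed genes of matrix, clotting and vessel growth 14 were tested, 8 were higher and 3 lower. F10, coagulation factor X, gave 309 UMIs against 3 (ratio 34.2, exact 95% interval 11.6 to 167), with all 3 microglial UMIs in the KO late tumour.

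Genes of the phagocyte oxidase and of redox defence were higher for 13 of 19 tested members (23 listed) and lower for 2, with a median log2 fold change of 0.94. Cybb, the catalytic subunit of the oxidase, was at 0 to 510 CPM in microglia and 613 to 1096 CPM in macrophages (1.93 ± 0.32, adjusted p = 5.3e-05). The methionine sulfoxide reductase Msrb1 had medians of 36.8 and 325 CPM (3.15 ± 0.30) and Prdx6, a peroxiredoxin, of 44.3 and 265 CPM (2.62 ± 0.28). Fth1, the ferritin heavy chain, was at 6100 to 10100 CPM in microglia and 14530 to 18910 CPM in macrophages (1.10 ± 0.17, adjusted p = 2.9e-05), without overlap.

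Immune checkpoint genes were higher for 2 of 10 tested members (23 listed) and lower for 3. Vsir, encoding VISTA, was at 284 to 526 CPM in microglia and 76.9 to 188 CPM in macrophages (-1.81 ± 0.23, adjusted p = 1.7e-06). Cd83 was lower in 5 of 6 tumours (-1.12 ± 0.23). Pdcd1lg2, a ligand of PD-1, gave 119 UMIs against 1 (ratio 39.5, exact 95% interval 6.96 to 1574). Of 26 listed cell cycle genes 19 were tested, 3 were higher and 0 lower. Tyms, thymidylate synthase, was among them (1.29 ± 0.40, adjusted p = 0.019) but was not called by DESeq2 (adjusted p = 0.054) or without the block (adjusted p = 0.18). Top2a did not pass (0.25 ± 0.33, adjusted p = 0.62).

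The targeted gene was examined before the genotypes were compared. Acod1 (chromosome 14, 103046977 to 103056573, plus strand) was at 119, 94.8 and 10.3 CPM in the microglia and 137, 35.1 and 35.3 CPM in the macrophages of the WT early, intermediate and late tumours. In the libraries labelled KO it was at 0, 6.6 and 35.0 CPM in microglia and 67.0, 13.6 and 57.7 CPM in macrophages. A 3′ count can lie outside the part that the cassette disrupts, so these UMIs do not check the labels. Between the classes Acod1 did not pass the test (0.55 ± 0.42, adjusted p = 0.36). Of 18 listed genes of itaconate and its targets 11 were tested, 1 was higher and 2 were lower. Slc7a11, the cystine transporter, was the higher one (2.35 ± 0.54, adjusted p = 0.0018).

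The gap between macrophages and microglia differed by genotype in 4 of 3700 genes (0.108%) at an adjusted p of 0.05, with 121 genes at unadjusted p-values below that level. All 4 had a more positive gap in KO, and 3 of them are described. Ccl8 had the most macrophage UMIs of the 3 (chromosome 11, 82115185 to 82116799, plus strand). Its macrophage level was 191, 0 and 94.1 CPM in the WT early, intermediate and late tumours and 635, 434 and 1661 CPM in KO, beside 93.5, 142 and 30.9 CPM and 40.8, 6.6 and 0 CPM in microglia. KO macrophages were thus above all WT macrophages. The macrophage UMIs of Ccl8 came from 87 of 410 cells (21.2%), and a single cell held 161 of 1223. The gap was 0.71 in WT and 6.20 in KO, a difference of 5.49 ± 0.96 on the log2 scale (adjusted p = 0.0072). It was not called without the WT early (adjusted p = 0.085), KO intermediate (0.11) or KO late (0.147) library, with a stricter gate that asked for 3 times the other score (0.11), or by DESeq2 (0.9999) or limma (0.69).

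Sdc4, the heparan sulfate proteoglycan syndecan 4, was at 157, 758 and 514 CPM in WT microglia and 40.8, 119 and 23.4 CPM in KO microglia, and at 218, 270 and 188 CPM and 176, 360 and 303 CPM in macrophages. The microglia held 37, 16 and 50 UMIs in WT and 2, 18 and 2 in KO. They came from 37 of 166 cells (22.3%), and a single cell held 34 UMIs. The gap was -0.58 in WT and 2.16 in KO (difference 2.74 ± 0.56, adjusted p = 0.039), and leaving out any 1 tumour other than the WT early one ended the call (adjusted p of 0.073 to 0.41). It was not called by DESeq2 (0.159) or limma (0.69), or with a stricter limit on tumour genes per cell (0.565), which also dropped the WT intermediate tumour.

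Apod, a lipocalin known from oligodendrocytes, was at 29.7, 0 and 123 CPM in WT microglia and 8.77, 0 and 0 CPM in WT macrophages, and at 0, 0 and 11.7 CPM and 54.6, 21.8 and 192 CPM in KO. The difference of the gaps was 6.98 ± 1.34 (adjusted p = 0.022) on 20 UMIs in microglia and 115 in macrophages. These UMIs came from 5 of 166 microglia (3.01%) and 31 of 410 macrophages (7.56%). A single cell held 11 of the microglial UMIs, and another held 60 of the macrophage UMIs. The WT late microglia had 12 UMIs in all and the KO late macrophages 80. The difference was not called without the WT late (0.068), KO early (0.081) or KO intermediate (0.146) library, nor by DESeq2 (0.091) or limma (0.97), at a minimum of 500 genes per cell (0.089) or after thinning to equal UMIs (0.163), and was not tested without the KO late library. Oligodendrocyte markers peaked in the same sums as Apod but did not follow it in every tumour. The 8 listed markers, all counted in both classes, summed to 190 to 4619 CPM in microglia and 70.3 to 1574 CPM in macrophages, with the maxima in the WT late microglia and the KO late macrophages. Their sum was higher in macrophages in 1 of 6 tumours. In the KO early and KO intermediate tumours, where Apod was counted only in macrophages, it was higher in microglia (449 against 231 CPM and 237 against 145 CPM). When cells with these markers were left out, an alternative chosen after the data had been seen, Apod was too low to test, Sdc4 was no longer called (adjusted p = 0.25) and Ccl8 was still called (6.89, adjusted p = 0.024).

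The genotype counts rested on few mice. When the KO late library was omitted, edgeR called 0 of 3504 genes, with 110 at unadjusted p-values below 0.05. When the WT early library was omitted it called 9 of 2589, of which 6 had a lower gap in KO. Each stage had 1 tumour per genotype, so within a stage an effect of a single mouse, or at the early and intermediate stages of sex, cannot be told apart from one of genotype.

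**Figure D5:**
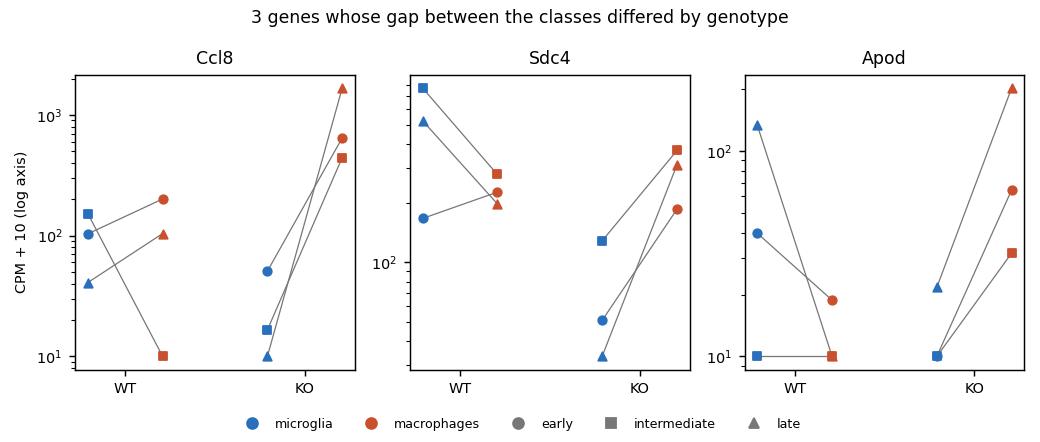
CPM plus 10 (log axis) of 3 genes whose gap differed by genotype, with lines joining microglia (blue) and macrophages (red) of the same tumour, WT at the left and KO at the right of each panel (circles early, squares intermediate, triangles late). Ccl8 macrophages lay between 434 and 1661 CPM in KO and between 0 and 191 CPM in WT, while Apod was highest in the WT late microglia and the KO late macrophages.

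Markers of other cell types were counted in both classes. B cell markers summed to 134 to 306 CPM in microglia and 11.8 to 120 CPM in macrophages, most of it Ighm. Markers of border-associated macrophages summed to 20.4 to 142 CPM in microglia and 368 to 2964 CPM in macrophages, mostly Pf4 and F13a1, while Lyve1, Cd209f and Cd209g were at 0 in both. Dendritic cell markers were at 20.4 to 383 CPM and 47.05 to 491 CPM, and neutrophil markers at 61.7 to 165 CPM and 0 to 62.5 CPM, with S100a9, Retnlg and Ngp at 0 in both. Astrocyte, endothelial and neuronal markers reached at most 395, 105 and 35.0 CPM in microglia and 281, 186 and 70.3 CPM in macrophages, and the listed tumour markers 68.0 to 759 CPM and 181 to 293 CPM. In 1 alternative, cells with more than 5 UMIs per 10000 of the dendritic cell, neutrophil, T and NK cell and B cell markers were left out. This removed 54 of 166 microglia and 86 of 410 macrophages of the tumours. It left 50 of 93 and 61 of 121 microglia in the WT and KO naïve brains. B cell markers were counted in 41.9% and 48.8% of those 93 and 121 cells. In the tumours, 402 genes were then higher and 358 lower, in a fit of 5 tumours, since the WT intermediate one held fewer than 5 cells of a class. Omitting that tumour alone gave 550 and 506. Apart from this count and from the values given above for Gzmc, Apod, Sdc4 and Ccl8, the part of other cell types in the gaps was not tested.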

How the data were processed

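Drop-seq libraries of 6 tumour-bearing and 2 naïve brains were analysed. The authors deposited whole-number UMI counts per gene and barcode, without normalization, in 1 table of 3000 barcodes per library. Sequencer output was converted (bcl2fastq 2.0), checked with FastQC and run through the Drop-seq pipeline with Picard FastqToSam. The submitters' processing notes also name STAR and GRCm38/mm10, and the annotation is not given in the sources used here. Tables held 2885345 to 9950713 UMIs, and median depth was 2591 to 5643 UMIs per cell passing the gene minimum. Of each table the 1000 barcodes with the most UMIs were used.

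Cells were gated per library as described above, and UMIs were summed for each library and class with at least 5 cells, giving 12 sums. Genes were tested with edgeR 4.0.16 in R 4.3.3 (TMM scaling, filterByExpr, glmQLFit and glmQLFTest, library as block, Benjamini-Hochberg adjustment over 3700 genes), first without and then with a class by genotype term. The 16 gate genes stayed in the totals and were not tested. The study compared single cells, but here the mouse is the replicate. Both classes of a library come from the same mouse, so the library pairs the sums and the block is part of the design. Standard errors of the fitted log2 fold changes were back-calculated from the quasi-likelihood F statistic, and the 95% intervals of log2 differences were built from them. Printed CPM, in contrast, are scaled to the plain total of a sum. Where a class held 1 to 3 UMIs, the ratio of pooled UMIs is given with an exact 95% interval. Each group has 1 library, so p-values rest on the spread between 6 mice over stages and genotypes. Shares of macrophages were compared by an exact permutation test (scipy 1.17.1, Python 3.11.15). The fits were tested on simulated data.

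Named genes were up to 4 called members with the largest change and up to 2 abundant members not called from each list, the 12 largest changes each way that moved alike in every pair at 100 CPM or more, the genes called for genotype, the genes the study named for TAMs, the gate genes and the 5 most abundant genes with a 95% interval within 0.5 log2 of 0. C1qa, C1qb, C1qc, Apoe, Spp1, Trem2, Pfkfb3, Hk2, Hif1a, Bnip3, Slc16a3, Slc2a1 and Pgk1 were added after their values were seen. Some genes that the rule names are not reported here. The classes and the gene lists were chosen with earlier results of these data known. Alternatives covered the scaling, the tool (DESeq2 1.42.0, limma 3.58.1), the filter, the block, the gate, equal depth and the omission of each library.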

Additional observations from a re-analysis of the deposited data

Results flagged for a closer look

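The log2 ratio of macrophages over microglia (CPM after TMM scaling, plus 10) was examined in each tumour for 142 genes named in the text, and 15 of them had 1 tumour far from the other 5 by Dixon's 95% criterion for 6 samples. For normal values of equal spread, chance flags about 1 in 20 genes. Counting error differed between these tumours, so that rate need not hold here.

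The WT intermediate tumour, with 6 microglia, stood apart for 8 genes. Its ratio was 2.14 for Clec4n (others 4.58 to 5.79), 0 for Il1r2 (2.12 to 3.36), -0.16 for Ifitm2 (1.96 to 3.03), 5.13 for Gatm (-0.99 to 0.82), 6.56 for S100a11 (3.64 to 4.63), 1.61 for Fcgr1 (-0.39 to 0.30), 5.49 for Cst7 (-5.70 to -2.42) and 6.57 for Tmsb10 (1.74 to 2.75). The WT late tumour did so for H2-Oa (0, others -2.88 to -2.13), H2-Q6 (-2.26, others -1.30 to -0.75) and Cybb (6.01, others 0.80 to 2.19). The WT early tumour did so for Spp1 (-1.63, others 2.60 to 5.06), where 1 cell held 133 of the 199 microglial UMIs. The KO late tumour had a low ratio for Clec4e (1.97, others 4.21 to 5.15) and F10 (1.59, others 3.60 to 4.62), and the KO early tumour a high one for S100a4 (4.10, others 1.91 to 2.51).

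The gap between the classes differed between genotypes in the interaction test, by 6.98 (KO minus WT) for Apod, 5.49 for Ccl8 and 2.74 for Sdc4 on the log2 scale.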

How the results depend on the processing

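For the 119 named genes called in the comparison of the classes, 2410 of 2456 alternative results kept direction and side of the threshold, 46 lost the threshold (14 genes, led by Axl with 15) and 0 reversed. Of the 23 named genes that were not called, 24 alternative results passed the threshold and 41 changed sign.

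The 489 higher and 442 lower genes became 484 and 443 with RLE size factors, 388 and 389 with DESeq2 and 422 and 349 with limma. Without the filter on low counts 830 genes were higher, of which 489 were those of the main count, and 435 were lower, of which 279 were. Leaving out 1 tumour gave 311 to 567 higher genes (311 without WT early, 322 without KO intermediate) and 293 to 506 lower genes (293 without KO intermediate). Without the pairing of the sums by library (no block), 411 genes were higher, 402 lower and 0 differed by genotype in edgeR (79 at an unadjusted p under 0.05). At least 10 cells per sum drops the WT intermediate tumour and equals its omission.

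The 4 genes whose gap differed by genotype became 1 with DESeq2 (59 at an unadjusted p under 0.05), 0 with limma (137), 15 without the filter, 2 at a minimum of 500 genes per cell, 7 without cells positive for both scores and 1 without cells with oligodendrocyte markers, the setting chosen after seeing the data. Leaving out 1 tumour gave 0 to 9 (0 without KO late, 1 without KO intermediate, 2 without KO early, 9 without WT early). The difference of macrophage shares stayed between 9.74 and 21.7 percentage points without 1 tumour and between 12.6 and 17.3 with other gates (exact permutation p of 0.1 to 0.3). The cause of these changes was not tested. Depth limits genes of few UMIs most in the microglia of the WT intermediate tumour, where 1 UMI is 47.4 CPM.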
